A study of Oryza sativa Japonica Group with 27 samples.

Results

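The same 13 Structure-seq2 libraries were read with a custom and with a standard sequencing primer, and the counts of both readings were compared at loci listed with exactly 1 transcript, where no other transcript of the locus can take the reads. The readings were paired by the letter that names the library in the labels, which gave 26 of the 27 samples. The 27th, the Circligase library with letter K, was read with the standard primer only and was not used. The rule kept 30563 of the 42132 transcripts listed, each the single entry of its locus among 35679 loci. Of these, 12005 carried the suffix -00, 18352 the suffix -01 and 206 another suffix. A total of 22789 had at least 1 count in the 26 readings, among them 6424 with suffix -00 and 16169 with suffix -01.

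Structure-seq2 maps the structure of RNA inside cells with dimethyl sulfate (DMS), which methylates unpaired adenine and cytosine. The reverse transcriptase halts before a methylated base, and the end of each cDNA is read by sequencing from a ligated adapter. The sequencing primer decides where in that adapter a read begins. The labels name the primers only as standard and custom, and their sequences were not used here. In the naming of rice transcripts used by the Rice Annotation Project, -00 marks a transcript model predicted without full-length cDNA, and -01 and higher mark models with such evidence. Its locus numbers run along each chromosome in steps of 100, which leaves room for loci added later.

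All libraries came from poly(A)-selected RNA of shoots of the rice cultivar Nipponbare (subspecies japonica), grown for 14 days. The standard protocol (no biotin, T4 DNA ligase, Q5 polymerase, purification on polyacrylamide gels, RT denaturation at 90 °C with salt and RT at 55 °C) was represented by 2 untreated and 2 DMS-treated libraries. The biotin variation, with biotin and streptavidin purification, likewise comprised 2 untreated and 2 DMS-treated libraries. The other 5 libraries had no DMS and no replicate, and each changed 1 step of the standard protocol. They were biotin only (with gel purification), Ex Taq (the PCR enzyme), low RT denaturation (65 °C without salt), low RT reaction (50 °C) and agarose (final purification on agarose). Both readings of a letter come from 1 library by its label, so the comparison measures reading and processing, and p-values measure the spread of the primer difference between libraries. No label says that libraries came from separate plants, so this spread may be technical. The files do not pair identifiers with gene names, and a table of RefSeq genes matched 1 of the loci, so transcripts are called by identifier and few are named, and tissue markers could not be looked up.

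Counts on these loci ran from 13423 to 169313 per library with the standard primer (median 94991) and from 14646 to 260286 with the custom primer (median 136976). The custom reading held more counts in 13 of 13 libraries. With TMM factors from these rows, 1 count was worth 6.66 to 34.0 CPM (counts relative to the TMM library size) with the standard primer and 4.78 to 29.6 CPM with the custom primer. A count of 0 thus allowed up to 14.3 CPM in the deepest reading and 102 CPM in the standard reading of the agarose library (3 counts). These limits cover counting error only. The biotin variation without DMS, replicate 1, and the agarose library were the shallowest.

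Single-transcript loci held a larger part of the table in the custom reading. They took 43.48% ± 1.37 of all counts with the standard primer and 56.14% ± 1.03 with the custom primer (SD, n = 13). The paired difference was 12.7 percentage points, higher in 13 of 13 libraries (two-sided exact permutation test, flipping signs of pairs, p = 0.000244, the lowest value 13 pairs can give). The readings did not overlap, with 41.2% to 45.8% under the standard primer and 54.0% to 57.2% under the custom primer. Summed over the libraries, the custom reading held 1.51 times the counts of the standard reading at loci with 1 transcript. The ratio was 0.977 at loci with 2 transcripts, 0.782 with 3, 0.587 with 4 and 0.522 with 5 or 6. It fell at every one of these steps in 12 of the 13 libraries. The exception was the biotin variation without DMS, replicate 1, where the last 2 ratios were 0.55 and 0.561. The primer difference of the table thus moved with the number of transcripts listed. How reads matching several transcripts were counted is not given, nor whether it was the same for both tables, so a primer difference here can include a difference in counting. Single libraries ranged from 1.09 to 2.73 at loci with 1 transcript, and the highest value was that of the agarose library.

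**Figure D1:**
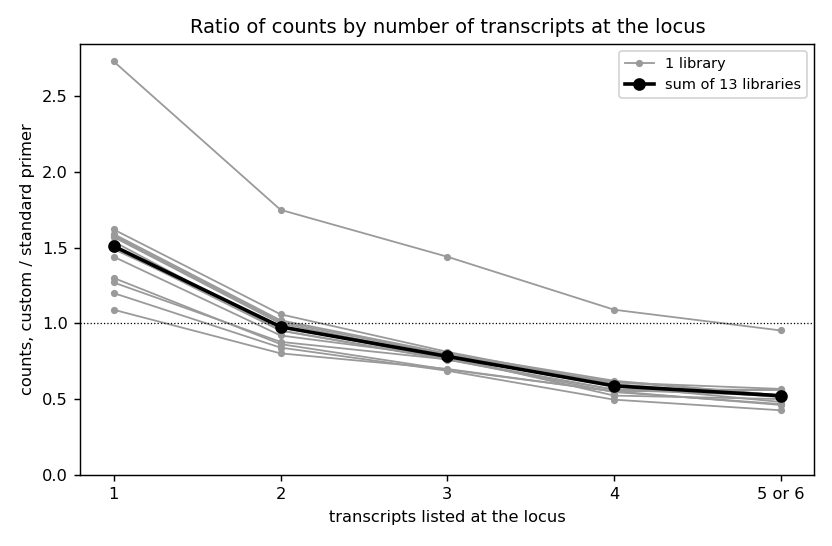
Counts with the custom primer divided by counts with the standard primer (y axis, linear) for loci with 1, 2, 3, 4 and 5 or 6 listed transcripts (x axis). Grey lines are the 13 libraries and the black line their sum, which falls from 1.51 to 0.522; the line far above the others is the agarose library, at 2.73 for 1 transcript.

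Within the single-transcript loci, transcripts with suffix -00 took a smaller share of the counts in the custom reading. These took 13.28% ± 1.62 of the counts with the standard primer and 8.575% ± 0.535 with the custom primer (SD, n = 13), a difference of -4.7 percentage points that was lower in 13 of 13 libraries (two-sided exact permutation test, p = 0.000244). The standard readings lay between 11.1% and 16.9%, the custom readings between 7.46% and 9.35%, so the groups did not overlap. The change was smallest in the standard protocol with DMS, replicate 2 (-3.04), and largest in the biotin variation without DMS, replicate 1 (-9.42). As a share of the whole table the difference was -0.968 percentage points (exact permutation p = 0.000488). The ratio of custom to standard counts was 1.01 for suffix -00 and 1.59 for suffix -01 over all libraries. In single libraries it ran from 0.482 to 1.97 for -00 and from 1.18 to 2.84 for -01. The 206 transcripts with other suffixes had a ratio of 1.63.

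At equal depth, fewer transcripts were seen with the custom primer. With every reading thinned by formula to 13423 counts on these loci, 4687 ± 496 transcripts were detected with the standard primer and 4331 ± 886 with the custom primer (SD, n = 13). The difference of -355 was below 0 in 13 of 13 libraries (two-sided exact permutation test, p = 0.000244). For suffix -00 the numbers were 708.4 ± 102 and 498.5 ± 96.1, a difference of -210 that again was below 0 in 13 of 13 libraries (exact permutation p = 0.000244). For suffix -01 they were 3892 ± 505 and 3747 ± 782, with 7 libraries higher and 6 lower with the custom primer (exact permutation p = 0.106). Without pairing the libraries, the difference of -355 did not pass (permutation p = 0.235). In the whole table it was -318 (exact permutation p = 0.112).

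This drop in detection was larger in the biotin variation. The paired difference was -910 ± 392 transcripts in its 4 libraries and -156 ± 16.6 in the 4 of the standard protocol (SD, n = 4 each; two-sided p = 0.0286 by exact permutation, the lowest value possible with 4 against 4). The biotin variation without DMS fell from 3137 and 4461 transcripts to 1726 and 3457, and the biotin variation with DMS from 4556 and 4915 to 4058 and 4186. All 4 libraries of the standard protocol fell by less, to between 4709 and 4893, and so did the 5 unreplicated libraries, biotin only included (-65.6). For suffix -00 the differences were -405 ± 105 and -146 ± 29.8, and for suffix -01 -502 ± 294 and -11.2 ± 34.9 (SD, n = 4 each; exact permutation p = 0.0286 for both). DMS-treated and untreated libraries, 4 against 4, had differences of -381 ± 284 and -686 ± 625 transcripts (exact permutation p = 0.429). Each of these groups held 2 libraries of either protocol.

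**Figure D2:**
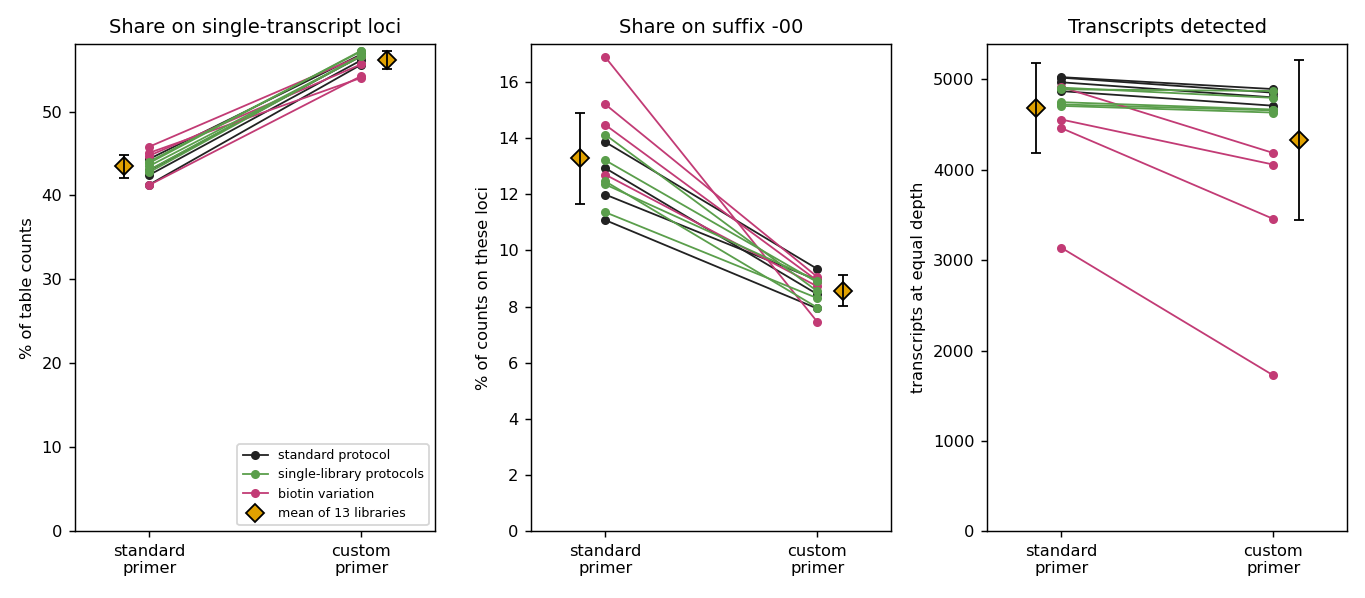
Each line joins the standard-primer reading (left) and the custom-primer reading (right) of 1 library; the panels show, in %, the share of table counts on single-transcript loci and the share of their counts on suffix -00, and the number of transcripts detected at 13423 counts. Diamonds with bars are means ± SD of 13 libraries, from 43.48% to 56.14%, from 13.28% to 8.575% and from 4687 to 4331; the steep lines on the right are the 4 biotin variation libraries.

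The 10 most abundant transcripts of a reading took 10.7% ± 2.28 of the counts on these loci with the standard primer and 12.41% ± 4.58 with the custom primer (SD, n = 13). The difference of 1.71 percentage points was above 0 in 13 of 13 libraries (two-sided exact permutation test, p = 0.000244) and ranged from 0.245 to 9.97. The highest belonged to the biotin variation without DMS, replicate 1, and without it the mean was 1.02. In the whole table the difference was -0.159 (exact permutation p = 0.542). Loci with several transcripts were not tested alone.

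A total of 5522 transcripts had at least 10 counts in at least 2 readings and were tested transcript by transcript with edgeR, library as a block. They were 18.1% of the rows, and only 4.97% of those with suffix -00 (597) against 26.2% of those with suffix -01 (4816), so low transcripts are outside this test. At an adjusted p of 0.05, 1226 were called, 22.2% of those tested. Of these, 639 were counted more with the standard primer (11.6%) and 587 with the custom primer (10.6%). Calls toward the standard primer had a median log2 change of -1.71, with 277 of them past 4-fold and 465 past 2-fold. Calls toward the custom primer had a median of 0.464 and a highest value of 1.59, with 17 past 2-fold and 0 past 4-fold. Among the former, 74 transcripts had no count in any custom reading. They passed the filter on low counts through the standard readings alone, and their fitted sizes depend on the prior count. Transcripts with fewer than 10 counts in every custom reading also passed that way, and these were not counted separately. The bounds of the 74 ran from at least 11.7-fold to at least 400-fold lower (floor of 3 counts over the custom readings). With the 74 at these bounds the median was again -1.71 and the numbers past 4-fold and 2-fold were the same. Every bound lies past 4-fold and beyond the median, so these values could not change and are no check on the sizes. The other 565 had a median of -1.47, with 203 past 4-fold and 391 past 2-fold. These 565 are not free of that selection. They include OS11T0427800-01, which had at most 6 counts in a custom reading.

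The calls toward the custom primer depended on the scaling. TMM factors put the median log2 change over the 5522 transcripts at 0.213, RLE factors at 0.0924 and plain library totals at 0.182. With the custom readings shifted so that this median lay near 0, an alternative added after the data were seen, 69 calls toward the custom primer were left and 794 toward the standard primer. RLE factors gave 251 and 734, and DESeq2 188 and 540. The share of calls toward the custom primer was 47.9%, against 25.5% with RLE factors, 25.8% with DESeq2 and 8% with the shifted scaling. Among the 848 transcripts with at least 50 counts in 2 readings it was 76% (444 and 140 calls), and among all 22789 with a count 24.8% (388 and 1179). It was 53.1% in libraries without DMS alone (450 and 397 calls, 4477 tested). In those with DMS alone it was 26.9% (105 and 286 calls, 3913 tested), a difference that was not tested. Fewer libraries had DMS, and the part of library number in this difference was not separated. With the whole table fitted and scaled, where loci with several transcripts have lower ratios, it rose to 83.2% (2567 and 518 calls on these rows). All 639 calls toward the standard primer remained with RLE factors, with library totals and with the shifted scaling. These settings lowered the median log2 change, which favours calls toward the standard primer, so they could hardly lose any. Of the 639, 518 remained with the whole table, 488 with DESeq2 and 365 without pairing. The transcripts called toward the custom primer were abundant ones, with a median of 28.3 counts per reading against 7.23 for all tested. The tested transcripts were also put in 5 groups by mean count. Among the 1105 with the most counts, 408 were called toward the custom primer and 134 toward the standard primer. Among the 1108 with the fewest, the numbers were 9 and 196. The median log2 change of these groups was 0.281 and 0.136. Small changes pass the threshold more easily at high counts, and the part of this in the calls was not tested. The numbers of calls therefore cannot show that the primer effect itself went with abundance.

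The split by suffix set the calls toward the standard primer apart. In either direction, 225 transcripts with suffix -00 (37.7%) and 968 with suffix -01 (20.1%) were called. Calls toward the standard primer were 185 of 597 transcripts with suffix -00, 31.0% of those tested, and 447 of 4816 with suffix -01, 9.28%. Of these, 144 with -00 and 414 with -01 had a count in a custom reading. Having a custom count does not mean that the filter was passed through the custom readings. Calls toward the custom primer were 40 with suffix -00 (6.7%) and 521 with suffix -01 (10.8%). The median log2 change was -0.013 for -00 and 0.219 for -01, and the lower quartile -1.02 and -0.0503. The median of -00 changed sign with the scaling, to 0.305 with the whole table and -0.125 with RLE factors, and lay below that of -01 in both, where 27% and 33% of -00 but 7.33% and 11% of -01 were called toward the standard primer. Without the filter on low counts these shares were 7.46% of -00 and 4.29% of -01, a smaller contrast than with it. Changes of more than 4-fold toward the standard primer were called for 93 transcripts with -00 and 183 with -01, and for 52 and 150 of those with a count in a custom reading. Of 109 tested transcripts with other suffixes, 33 (30.3%) were called, 26 toward the custom primer (23.9%) and 7 toward the standard primer (6.42%). Per library, among transcripts with at least 20 counts in both readings together, 12.5% to 36% of those with -00 lay more than 2-fold lower in the custom reading. For -01 the range was 3.21% to 11.4%, and the share was higher for -00 in 13 of 13 libraries. The median log2 ratio was likewise lower for -00 in 13 of 13 libraries, with differences from -0.779 to -0.129. These counts by suffix describe the calls, and the difference between suffixes over libraries was tested with the share of counts above.

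**Figure D3:**
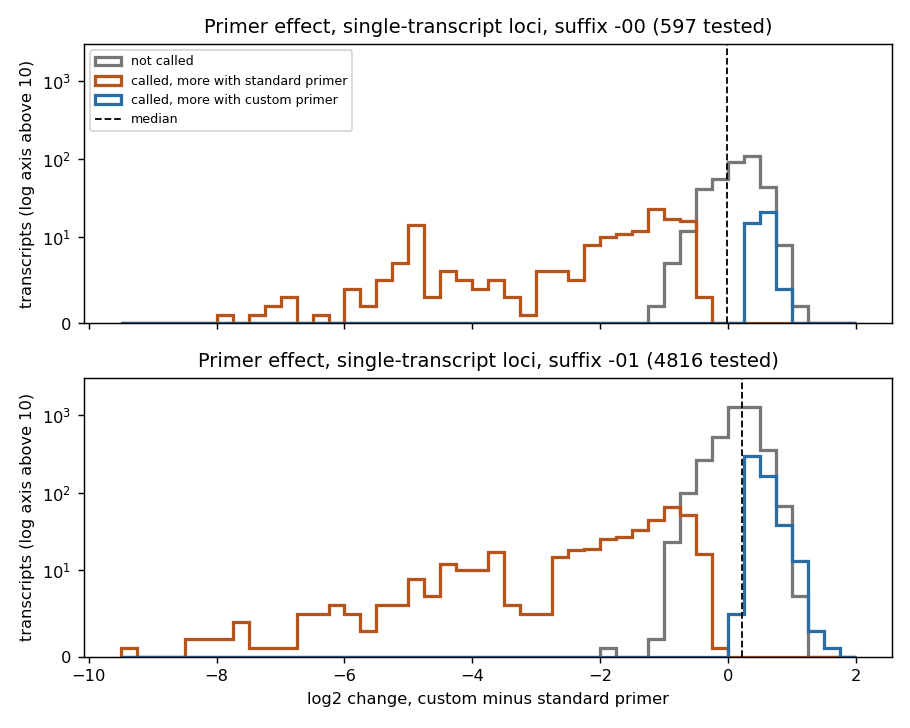
Numbers of tested transcripts (y axis, logarithmic above 10) by log2 change, custom minus standard primer (x axis), for suffix -00 (top) and -01 (bottom). Lines separate transcripts called toward the standard primer, called toward the custom primer and not called, and the dashed line is the median, -0.013 and 0.219; both suffixes have a long tail to the left and an edge near 1 on the right.

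Calls toward the standard primer also went with the locus number. Of the 639, 108 (16.9%) had a number that is no multiple of 100, against 5.34% of all transcripts tested and 3.82% of those not called. Among the transcripts tested, this held within each suffix. For -00, 64 of 136 such transcripts (47.1%) were called toward the standard primer, and 121 of 461 (26.2%) with a multiple of 100. For -01 the numbers were 43 of 158 (27.2%) and 404 of 4658 (8.67%). The filter kept unlike parts of these classes. For -00 it kept 136 of 4994 such transcripts and 461 of 7011 with a multiple of 100. For -01 it kept 158 of 1367 and 4658 of 16985. By chromosome, the share of tested transcripts called toward the standard primer ran from 9.43% on chromosome 3 to 19% on chromosome 12, with 16.7% on chromosome 11. Shares called toward the custom primer ran from 6.46% on chromosome 11 to 12.5% on chromosome 1. The calls toward the standard primer here include transcripts with no custom count, 41 with -00 and 33 with -01. These passed the filter through the standard readings alone and were not separated by locus number or chromosome.

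The 2 transcripts with the largest fitted change toward the standard primer, among 79 that averaged 20 or more counts over the standard readings alone and had the same direction in at least 12 libraries, were OS07T0669500-01 on chromosome 7 and OS11T0427800-01 on chromosome 11. OS07T0669500-01 had no count in any custom reading and 330 counts in the standard readings, where it was at 327 ± 288 CPM (SD, n = 13; lowest 0, median 234, highest 867). The standard protocol without DMS had 47 and 47 counts and that with DMS 9 and 77, while the biotin variation had 20 and 24 without DMS and 2 and 0 with it. Biotin only had 13 counts, Ex Taq 24, low RT denaturation 1, low RT reaction 60 and agarose 6. The custom reading was thus lower in 12 libraries and equal, at 0, in 1. It was at least 161-fold lower with the custom primer (floor of 3 counts over the 13 readings; fitted log2 change -7.97, SE 0.382, edgeR adjusted p = 2.71e-23). OS11T0427800-01 was at 455.6 ± 212.9 CPM with the standard primer (lowest 176, median 480, highest 851) and 14.1 ± 13.6 CPM with the custom primer (lowest 0, median 7.97, highest 37.3), with no overlap between the readings. Its log2 change was -5.04 (SE 0.223, edgeR adjusted p = 3.60e-28), lower in 13 of 13 libraries. It had at most 6 counts in a custom reading. Like OS07T0669500-01, it therefore passed the filter on low counts through the standard readings alone. Both transcripts passed the threshold under every alternative in which they were tested, 23 and 24 in number.

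Toward the custom primer, the largest changes among 174 transcripts with the same conditions, the mean count taken in the custom readings alone, were those of OS02T0635000-01 on chromosome 2 and OS11T0130200-01 on chromosome 11. OS02T0635000-01 was at 97.2 ± 75.6 CPM with the standard primer (lowest 0, median 74.4, highest 239) and 176.1 ± 110.4 CPM with the custom primer (lowest 33.1, median 151, highest 398; SD, n = 13). Its log2 change was 0.869 (SE 0.197, edgeR adjusted p = 4.49e-04), with 106 and 269 counts in all and a higher custom value in 13 of 13 libraries, although the ranges overlapped. In 3 libraries, the standard protocol without DMS replicate 1, low RT reaction and agarose, the standard reading had no count. OS11T0130200-01 was at 90.8 ± 56.8 CPM (lowest 0, median 79.4, highest 210) and 160.4 ± 83.5 CPM (lowest 0, median 149, highest 285). Its log2 change was 0.823 (SE 0.18, edgeR adjusted p = 2.77e-04), higher in 12 of 13 libraries, and the biotin variation without DMS, replicate 1, had no count in either reading. With the shifted scaling both still passed, at log2 changes of 0.658 and 0.612 (edgeR adjusted p = 0.0118 and 0.0103). Without the pairing by library both missed the threshold (edgeR adjusted p = 0.551 and 0.375), and in libraries with DMS alone OS11T0130200-01 did (0.115).

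**Figure D4:**
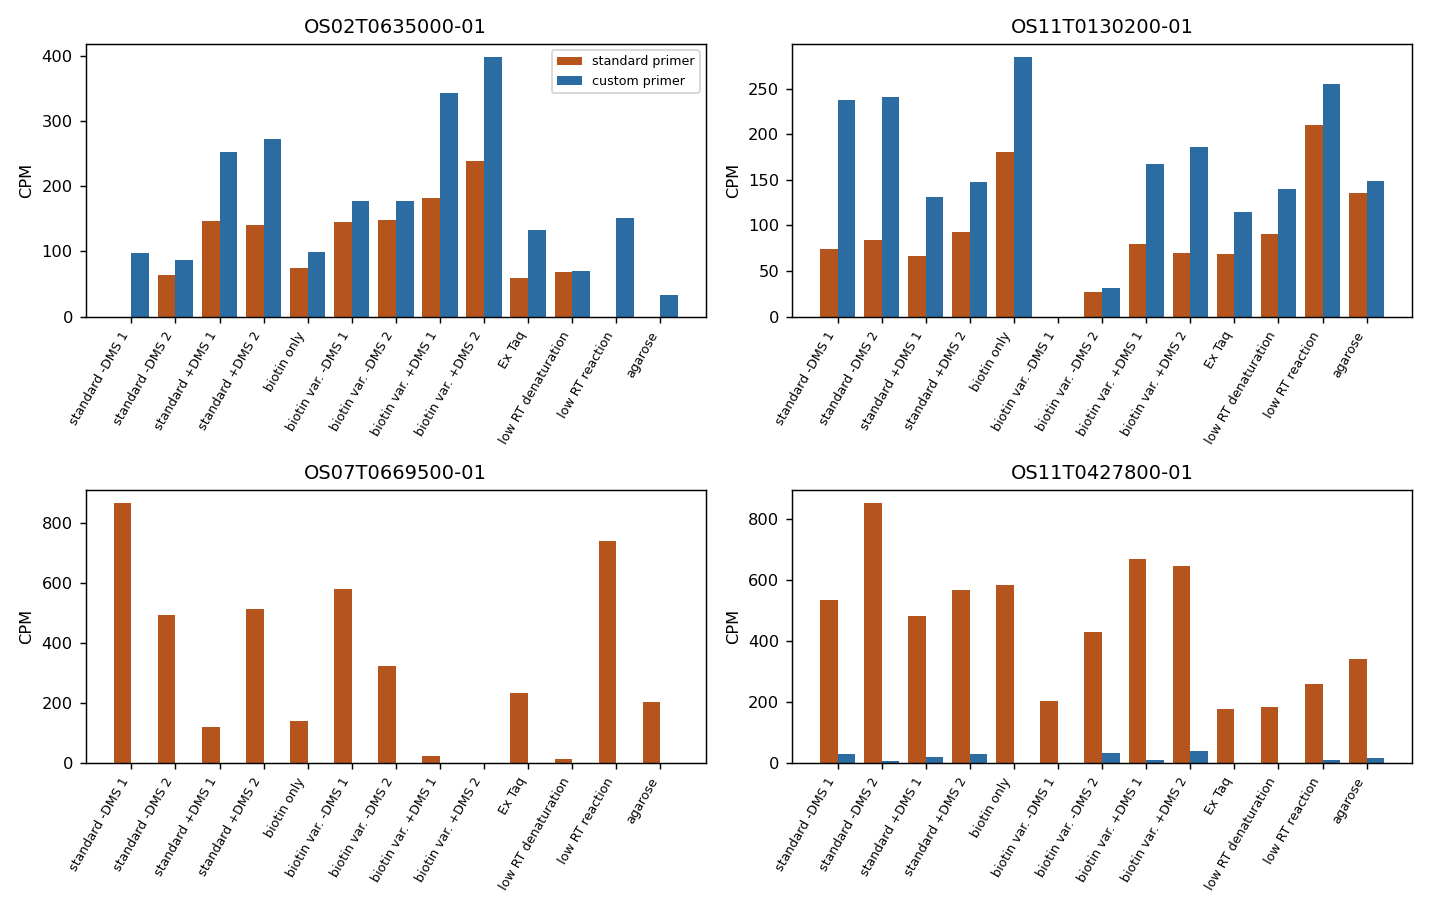
CPM (y axes, linear, one scale per panel) in the standard-primer and custom-primer readings of the 13 libraries (x axes) for the 2 transcripts with the largest change in each direction. OS07T0669500-01 has no bar for the custom primer, and OS11T0427800-01 stays at or below 37.3 CPM there, while the top panels show higher custom bars in 13 and 12 libraries.

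The counts of many transcripts toward the standard primer went together across libraries. Among tested transcripts with at least 100 counts over the 13 standard readings, 119 of 386 called toward the standard primer (30.8%) had a transcript of another locus whose counts followed theirs with Pearson's r of at least 0.99 over the 13 libraries. The numbers were 6 of 452 (1.33%) for calls toward the custom primer and 12 of 1169 (1.03%) for transcripts not called, with median counts of 212, 340 and 150. Of the 119, 116 had such a partner that was called in the same direction. In the custom readings, 8 of 193 transcripts called toward the standard primer (4.15%) had a partner, at a median of 193 counts. OS07T0669500-01 had 3 partners and OS11T0427800-01 none. These correlations rest on 13 libraries whose depths differ, carry no test, and mean that such transcripts cannot be taken as independent calls. Together the 639 transcripts took 14.4% to 23.9% of the counts of a library with the standard primer and 6.37% to 8.67% with the custom primer, a description of a set chosen by this contrast.

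The primer effect itself differed between library kinds for few transcripts. In a fit of the 8 replicated libraries, 40 of 4794 transcripts (0.834%) had a primer effect that differed between the biotin variation and the standard protocol, 11 (0.229%) with a higher and 29 (0.605%) with a lower log2 change in the biotin variation. The numbers were 3 to 13 higher and 6 to 73 lower with 1 library left out, the 73 without the biotin variation with DMS, replicate 1. DESeq2 called 2 and 4, and a minimum of 50 counts left 2 and 0. Of the 40, 22 were among those called toward the standard primer. Such calls were 11.6% of the 5522 transcripts tested for the primer, and their share among the 4794 was not taken. OS01T0528000-01 had 216 counts with the standard and 6 with the custom primer under the standard protocol, while the biotin variation gave 53 and 33, a difference of 4.80 in log2 change (SE 0.627, edgeR adjusted p = 3.59e-09). OS03T0283900-01 was counted 207 and 0 times in the standard protocol, against 40 and 2 times in the biotin variation, so its fitted difference of 9.28 (SE 2.16, edgeR adjusted p = 0.00644) rests on 2 custom counts, both in the biotin variation with DMS, replicate 1, and was 2.08 without that library (edgeR adjusted p = 1). In the other direction, OS10T0569200-01 was counted 73 and 120 times in the standard protocol but 74 and 13 times in the biotin variation (difference -2.97, SE 0.495, edgeR adjusted p = 2.02e-05), although DESeq2 did not call it (adjusted p = 0.0752). OS07T0545800-01 had 121 and 142 against 20 and 2 (difference -3.17, SE 0.843, edgeR adjusted p = 0.0312). Of its 20 standard counts 17 came from the biotin variation without DMS, replicate 2, and without that library the difference was -0.17 (edgeR adjusted p = 1). It also missed the threshold without either standard library without DMS and without the standard protocol with DMS, replicate 1. OS03T0283900-01 missed it without the standard protocol with DMS, replicate 2, as well.

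Between libraries with and without DMS, the primer effect differed for 3 of 4794 transcripts (0.0626%), all with a higher log2 change with DMS and all among those called toward the standard primer. At an unadjusted p under 0.05 there were 181 of 4794, a smaller share than the 0.05 that chance alone gives. The difference between protocols had 328. OS10T0502000-01 had 236 counts with the standard and 54 with the custom primer without DMS, and 238 and 162 with it (difference 1.76, SE 0.315, edgeR adjusted p = 0.000362). OS04T0656500-01 was counted 263 and 6 times without DMS but 209 and 28 times with it (difference 3.13, SE 0.68, edgeR adjusted p = 0.0176). Leaving out 1 library moved the difference of OS04T0656500-01 between 1.56 without the biotin variation with DMS, replicate 1 (edgeR adjusted p = 1), and 8.42 without the standard protocol without DMS, replicate 2. It missed the threshold in 6 of these 8 fits, and OS10T0502000-01 missed it in 4, at differences from 1.53 to 2.59 over the 8. DESeq2 called none, and the number of calls was 0 or 1 in 6 of the 8 fits that left out a library. In the standard readings the counts of these 2 transcripts followed those of OS03T0283900-01 and OS01T0528000-01, with r between 0.938 and 0.993 for each pair over 13 libraries. In the custom readings r for the same pairs lay between -0.247 and 0.329. In the replicated libraries, OS03T0283900-01 had 0 custom counts under the standard protocol and 2 in the biotin variation, and OS01T0528000-01 had 6 and 33. At such low counts the custom values of r cannot show whether these transcripts went together.

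Replicate libraries of the standard protocol agreed more closely in the custom readings. Across the 5522 tested transcripts, Pearson's r of log2(CPM + 1) was 0.626 with the standard and 0.817 with the custom primer without DMS, and 0.67 and 0.867 with DMS. Transcripts are not replicates, and the 4 pairs of libraries allow no test. Without the 639 transcripts called toward the standard primer, the values were 0.636 and 0.773 without DMS and 0.721 and 0.823 with it. In the biotin variation r was 0.371 and 0.366 without DMS and 0.625 and 0.679 with it. For suffix -00 the standard protocol gave 0.642 and 0.848 without DMS and 0.688 and 0.89 with it, and for suffix -01 0.617 and 0.803, and 0.662 and 0.857. The custom readings were also the deeper ones, and the part of depth in this difference was not tested. Between the readings of 1 library r was 0.655 ± 0.0995 (SD, n = 13), lowest in the agarose library (0.456) and highest in the biotin variation with DMS, replicate 1 (0.785). Relative to counting noise, over transcripts with at least 20 counts, replicates of the standard protocol had a chi-square per degree of freedom of 1.40 (untreated) and 1.65 (DMS) with the custom primer, against 3.61 and 3.21 with the standard primer. Between the readings of 1 library it was 4.72 ± 0.987 (SD, n = 13). The lowest of these 13 values was 3.67, above all 4 values of the replicates. In the biotin variation replicates differed more, with 7.96 and 11.9 for the standard and custom primer without DMS, and 3.88 and 3.09 with DMS.

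**Figure D5:**
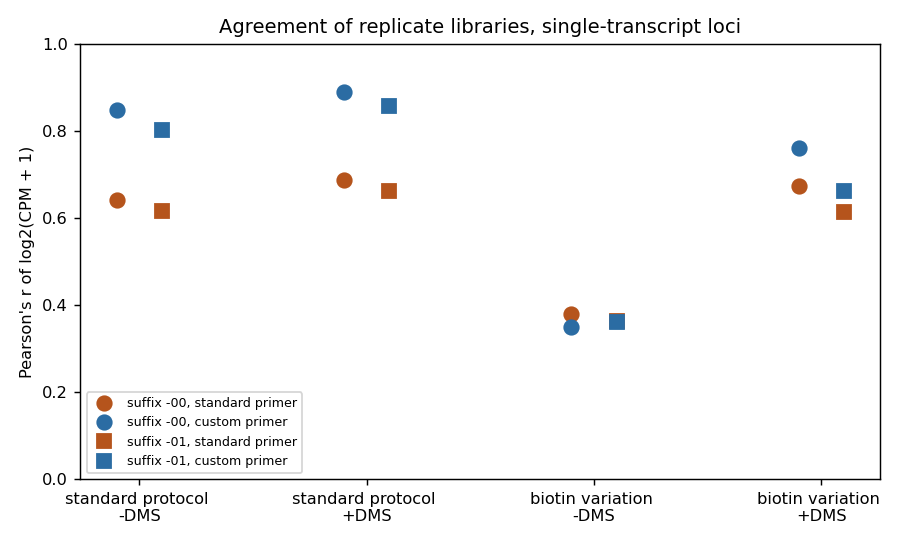
Pearson's r across tested transcripts of log2(CPM + 1) between the 2 replicates (y axis) for the 4 replicated kinds of library (x axis), by suffix and primer; each point is 1 pair of libraries. In the standard protocol the custom-primer points lie between 0.803 and 0.89 and the standard-primer points between 0.617 and 0.688, while both primers lie between 0.35 and 0.379 in the biotin variation without DMS.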

How the data were processed

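The authors deposited 2 tables of raw counts, 1 for each primer, with transcripts in rows and a column per library letter, per the file headers. Cutadapt and Bowtie2 are listed in the submitters' processing notes with no version or role. Build, annotation, counting rule and the handling of reads with several matches: not given in the sources used here. There were 0 columns outside the labels.

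Rows were kept where the locus has 1 transcript, and library totals and TMM factors came from these rows. Tests used edgeR 4.0.16 (quasi-likelihood, Benjamini-Hochberg over all rows tested) in R 4.3.3 with limma 3.58.1, for rows with at least 10 counts in at least 2 readings. Each standard error was derived from the log2 change and its F statistic. The readings pair by letter, per the labels. Deviations of both readings of a letter correlated at 0.125 to 0.702 (mean 0.439) across tested transcripts, and 10 of 13 readings correlated best with their own letter. Shares and detection were compared by exact permutation of signs over 13 pairs. Named transcripts had adjusted p under 0.05, a mean of at least 20 counts over the 13 readings of the primer where they were higher, and the same sign in at least 12 libraries, taken by size of change. The mean over both readings can be lower. For differences between kinds of library the sign condition was not used and the mean was that of the kind with more counts, over both primers. The scripts were tested on simulated data. Lists of genes by function were not run, because identifiers carry no names. The libraries, rows and tests were chosen with earlier results of these data known.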

Additional observations from a re-analysis of the deposited data

Results flagged for a closer look

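In the standard protocol, replicate 1 with DMS had a smaller loss of transcripts with the custom primer (-131.7) than the other 3 libraries, and its gap to them was large for the range of the 4. Replicate 1 without DMS had a lower share in its 10 most abundant transcripts with the custom primer, 10.27%, by the same measure. In the biotin variation without DMS, replicate 1, the shallowest custom reading, that share was 27.37%, and its difference between primers was 9.97 percentage points, far from the other 3 libraries. Chance gives such a gap in about 1 of 20 groups of this size. Many overlapping groups were searched, so chance alone would give some of these gaps.

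The loss of detected transcripts with the custom primer differed between the biotin variation and the standard protocol for all transcripts, for suffix -00 and for suffix -01 (exact permutation p = 0.0286 each, the smallest 4 against 4 libraries allow). The primer effect of single transcripts differed between these protocols for 40 transcripts and between libraries with and without DMS for 3 (edgeR). The named differences in log2 change, biotin variation minus standard protocol, were 9.28 for OS03T0283900-01, 4.80 for OS01T0528000-01, -3.17 for OS07T0545800-01 and -2.97 for OS10T0569200-01. With DMS minus without, they were 3.13 for OS04T0656500-01 and 1.76 for OS10T0502000-01.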

How the results depend on the processing

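Counts are given here as toward the custom and toward the standard primer. RLE factors left 251 (14 for suffix -00, 219 for -01) toward the custom primer and DESeq2 188 (11 and 162). The whole table gave 2567 (187 and 2308), and the shifted scaling 69 (6 and 60). Without the count filter there were 388 (24 and 343) and 1179 (479 and 693), and with a minimum of 50 counts 444 (25 and 393) and 140 (35 and 104). Libraries without DMS alone gave 450 (29 and 397) and 397 (108 and 283), and those with DMS alone 105 (6 and 91) and 286 (88 and 196). Without the replicate block, which here is the pairing by letter, there were 0 (0 and 0) and 365 (121 and 243), and 0 for each difference between kinds. Without the shallowest libraries F and N, suffix -00 had 23 toward the custom primer. Leaving out 1 library at a time gave 428 to 772 and 538 to 656, 26 to 52 and 139 to 189 for -00, and 380 to 689 and 377 to 460 for -01. The lowest for -00 toward the custom primer, 26, came without the biotin variation with DMS, replicate 2.

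For the difference between protocols, a minimum of 50 counts gave 2 higher and 0 lower, and DESeq2 2 and 4. Leaving out 1 library gave 3 to 13 higher and 6 to 73 lower. It gave 4 and 17 without the standard protocol without DMS replicate 1, 12 lower without its replicate 2, 7 higher without the standard protocol with DMS replicate 1 and 3 higher without its replicate 2. It gave 7 and 6 without the biotin variation without DMS replicate 2, 7 and 73 without the biotin variation with DMS replicate 1, and 5 and 7 without its replicate 2. For the difference with DMS, both settings gave 0 higher. Leaving out 1 library gave 0 to 13 higher and 0 to 1 lower, with 9 without the standard protocol without DMS replicate 2, and 13 and 1 without the standard protocol with DMS replicate 2. The cause was not tested.

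The loss of detected transcripts (-355) was -318 in the whole table and kept its size without pairing, where it missed the threshold. Leaving out 1 library gave -383 to -267. Thinned to a depth of 6711 counts it was -205, and without F and N, at a higher depth, -775. The share of the 10 most abundant transcripts turned from 1.71 to -0.159 in the whole table. It missed the threshold unpaired (1.71, permutation p = 0.288), and it was 1.02 to 1.83 with 1 library left out. The shares on suffix -00 and on single-transcript loci passed under every alternative run, at -5.04 to -0.968 and 12.5 to 13 percentage points. Depth limits single transcripts most in the biotin variation without DMS, replicate 1, and in the agarose library.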
